A study of Mus musculus with 3 samples.

Results

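Spp1-high microglia of the fetal mouse brain were gated microglia with abundant transcript of Spp1, the osteopontin gene. They were 713 of the 16823 microglia that passed the gate described here, out of 44013 barcodes in 3 single-cell libraries. Cells were kept at 500 or more detected genes when mitochondrial genes gave no more than 10% of their transcript counts, which left 36354 cells. It was gated as a microglial cell when at least 3 of the 6 microglia genes P2ry12, Tmem119, Sall1, Siglech, Gpr34 and Slc2a5 were detected, the monocyte gene Ccr2 was absent, at most 1 of the 5 border macrophage genes Mrc1, F13a1, Cd163, Lyve1 and Ms4a7 was detected, and at most 3 of 10 cell cycle genes were detected. It was Spp1-high with at least 10 unique molecular identifiers (UMIs, counts of captured transcripts) of Spp1, and it was compared with the 12494 gated microglia that had no Spp1 UMI. Members were therefore chosen by their measured Spp1, so their contrast with Spp1-zero microglia is a description without a test.

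The cells came from brains of fetuses at E18.5, late in gestation, enriched for the myeloid integrin chain CD11b with magnetic beads after a Percoll gradient. The libraries were Gzmb-cko+polyIC (genotype Ncr1-cre;gzmbf/f, with poly(I:C), a synthetic double-stranded RNA used to mimic viral infection), Ncr1-cre+polyIC (Ncr1-cre with poly(I:C)) and Ncr1-cre+Saline (Ncr1-cre with saline), with 1 library per group. All 3 libraries carried Ncr1-cre, a Cre allele active in natural killer and other innate lymphoid cells and not in microglia, so the granzyme B deletion was not aimed at the cells described here. The sources used here do not state whose genotype the label gives (dam or fetus), the dose and day of poly(I:C), the sex of the fetuses or how many brains were pooled. With 1 library per group no difference between groups has a replicate check, cells of a library are not replicates, and every interval below is a 95% interval that covers counting error only.

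Microglia settle in the brain before birth and pass through transient states while they do so. One such state, known from late fetal and early postnatal white matter and called axon-tract-associated microglia, secretes osteopontin and insulin-like growth factor, takes up lipid-rich debris and carries lysosomal and lipid-binding proteins. Osteopontin, the product of Spp1, is a secreted matrix glycoprotein that binds integrins and Cd44.

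The members are shown first by the start regions of genes that characterise them. Of 22 genes (the 6 markers and the 20 named higher genes introduced with the profile, some in both sets), 15 had a promoter in RefSeq for GRCm38.p6. The 250 bases before 1 annotated start per gene were searched on both strands for 4 motifs. TGANTCA, the site of AP-1 factors, was present in 3 of the 15 windows, against 6.85% of 27025 mouse windows of the same length. TCATGTG, a core of the M-box read by Mitf and its relatives, was in 1 of the 15, against 3.21%. GAGGAAGT, a site of the myeloid factor PU.1, was in 1 of the 15, against 2.42%. CACGTG, the E-box of basic helix-loop-helix factors, was in 0 of the 15, against 6.04%. A match is a description of letters and not of binding.

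The 150 bases before the start are printed 5′ to 3′ on the gene's strand for the gene that chose the cells (Spp1, GRCm38 chr5:104434961-104435110, plus strand), for the marker with the highest ratio in the contrast (Gpnmb, chr6:49036368-49036517, plus strand), and for the higher genes Igf1 (chr10:87860961-87861110, plus strand) and Itgax (chr7:128129400-128129549, plus strand), with motif matches in capitals. The Spp1 window held the PU.1 letters 113 to 106 bases before the start. The AP-1 motif was matched 37 to 31 bases before the start in the Igf1 window, as TGAATCA. In the Itgax window it was matched 56 to 50 bases before the start, as TGAGTCA. The Igf1 start used here lies inside the gene, which begins at chr10:87858265 in the GRCm38 gene annotation. None of the 4 motifs was in the Gpnmb window.
Spp1: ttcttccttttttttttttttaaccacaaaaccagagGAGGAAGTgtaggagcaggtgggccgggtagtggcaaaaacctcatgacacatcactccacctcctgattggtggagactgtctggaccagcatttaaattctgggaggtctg
Gpnmb: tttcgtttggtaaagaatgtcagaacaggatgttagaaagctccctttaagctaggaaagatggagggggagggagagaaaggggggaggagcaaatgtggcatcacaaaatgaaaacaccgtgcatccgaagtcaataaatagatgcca
Igf1: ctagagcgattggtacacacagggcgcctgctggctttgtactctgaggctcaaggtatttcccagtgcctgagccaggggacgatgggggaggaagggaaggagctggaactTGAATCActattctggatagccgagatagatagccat
Itgax: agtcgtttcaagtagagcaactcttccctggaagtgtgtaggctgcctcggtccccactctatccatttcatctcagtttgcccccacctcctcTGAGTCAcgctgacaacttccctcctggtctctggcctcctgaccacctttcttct

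The libraries held 105574073 UMIs in Gzmb-cko+polyIC, 85442198 in Ncr1-cre+polyIC and 89295907 in Ncr1-cre+Saline, and the lowest total of a barcode was 500 UMIs in both poly(I:C) libraries, against 3133 in the saline library. Between 0.423% and 0.514% of barcodes were shared by a pair of libraries, and no shared barcode was Spp1-high in both. Scrublet, a doublet caller, marked 4.86%, 2.42% and 0.457% of Spp1-high cells in Gzmb-cko+polyIC, Ncr1-cre+polyIC and Ncr1-cre+Saline, against 2.46%, 1.93% and 0.590% of Spp1-zero cells. Cells with a transcript of a Y-linked gene and no Xist were 48.6%, 19.4% and 28.8% of Spp1-high cells and 37.7%, 20.9% and 26.9% of Spp1-zero cells in the same order, so the libraries differed in this measure of sex. The part of sex, of doublets and of the differing lower limits in any difference between libraries was not tested.

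Spp1-high cells were 370 of 6331 gated microglia in Gzmb-cko+polyIC, a share of 5.84% (exact Clopper-Pearson interval 5.28 to 6.45%). They were 124 of 4873 in Ncr1-cre+polyIC, 2.54% (2.12 to 3.03%), and 219 of 5619 in Ncr1-cre+Saline, 3.90% (3.41 to 4.44%). The 3 intervals did not overlap: the share was highest in the Gzmb-cko+polyIC library and lowest in the Ncr1-cre+polyIC library. The share in Gzmb-cko+polyIC was 2.30 times (1.87 to 2.84) that in Ncr1-cre+polyIC, and the share in Ncr1-cre+polyIC was 0.653 times (0.520 to 0.818) that in Ncr1-cre+Saline. Of all kept cells, of any type, Spp1-high microglia were 2.75%, 1.15% and 1.80% in the same order of libraries.

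**Figure D1:**
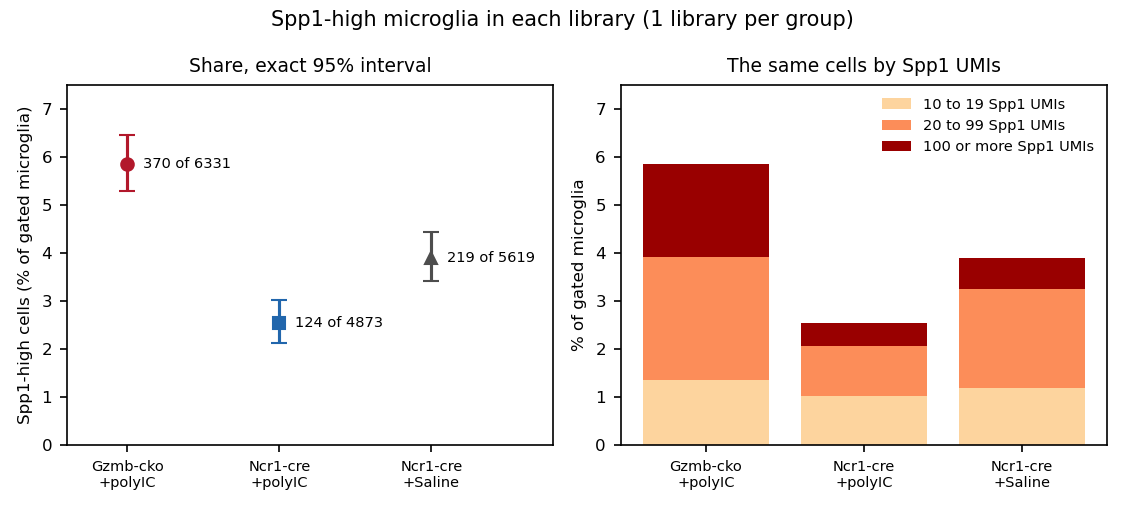
Left, share of Spp1-high cells in percent of gated microglia, with exact 95% intervals for counting error; right, the same share stacked by the Spp1 UMIs of the cells, with 1 library per group. The share was 5.84% in Gzmb-cko+polyIC, 2.54% in Ncr1-cre+polyIC and 3.90% in Ncr1-cre+Saline, and cells with 100 or more Spp1 UMIs made up 33.2%, 19.4% and 16.9% of the Spp1-high cells.

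These few cells held nearly all Spp1 transcript of the gated microglia: 94.6% in Gzmb-cko+polyIC, 90.6% in Ncr1-cre+polyIC and 86.8% in Ncr1-cre+Saline. Levels are given as CPM, the UMIs of a gene summed over a class in a library and scaled to 1000000 UMIs of that class. Over all gated microglia Spp1 stood at 1339 CPM in Gzmb-cko+polyIC, 399 CPM in Ncr1-cre+polyIC and 568 CPM in Ncr1-cre+Saline. Within Spp1-high cells it stood at 12632, 8528 and 8665 CPM in the same order. The gated level in Gzmb-cko+polyIC was 3.36 times that in Ncr1-cre+polyIC, beside 2.30 times the share of Spp1-high cells and 1.48 times the CPM within them. The share is per cell and the CPM per UMI, so the ratios are set side by side and do not multiply to the gated ratio. Between Ncr1-cre+polyIC and Ncr1-cre+Saline the gated level differed 0.702 times, the share 0.653 times and the level within Spp1-high cells 0.984 times (0.960 to 1.01).

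Single Spp1-high cells differed widely in osteopontin transcript. The median cell had 49.5 Spp1 UMIs in Gzmb-cko+polyIC, 25.5 in Ncr1-cre+polyIC and 33 in Ncr1-cre+Saline, and the highest cells had 1416, 1155 and 946. The top 10% of the cells held 49.99%, 56.4% and 47.6% of the class's Spp1 UMIs. Cells with at least 100 Spp1 UMIs were 123 of 370 (33.2%) in Gzmb-cko+polyIC, 24 of 124 (19.4%) in Ncr1-cre+polyIC and 37 of 219 (16.9%) in Ncr1-cre+Saline. By raw UMIs the Gzmb-cko+polyIC library thus held the most cells of very high Spp1. Depth moved with Spp1: the median total was 10315.5, 9067 and 7089 UMIs in Spp1-high cells, against 5453, 5156.5 and 4352.5 in Spp1-zero cells, in the same order of libraries. Per 10000 UMIs of a cell the median Spp1 of Spp1-high cells was 50.7, 31.4 and 46.6. By that measure Gzmb-cko+polyIC and Ncr1-cre+Saline lay closer together than by raw UMIs, and the part of depth was not tested.

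Among 53, 191 and 156 neutrophil-like cells, which should lack Spp1, 13.2%, 11% and 19.2% had at least 1 Spp1 UMI, at median depths of 5247, 4585 and 5161 UMIs. None had 10 Spp1 UMIs, and a count of 0 (limit of 3 counts) allows a share of up to 5.66%, 1.57% and 1.92%. Gated microglia had a Spp1 UMI in 33.2%, 13.8% and 27.6% of cells at median depths of 5819, 5291 and 4559 UMIs. In Ncr1-cre+polyIC the interval of the neutrophil-like share (6.94 to 16.3%) contained the microglial share, so a single Spp1 UMI there was not told apart from the neutrophil-like background. Neuron-like cells had a Spp1 UMI in 16.9%, 3.88% and 18.6%. In Ncr1-cre+polyIC the interval of the neuron-like share (1.79 to 7.24%) lay below the microglial share, so the neutrophil-like and neuron-like backgrounds differed there. Only 1 of 59 neuron-like cells in Ncr1-cre+Saline, 0 of 71 in Gzmb-cko+polyIC (up to 4.23%) and 0 of 232 in Ncr1-cre+polyIC (up to 1.29%) reached 10 Spp1 UMIs.

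The label of axon-tract-like microglia names 5 markers beside Spp1, which the gate did not use. They belong to the definition of the label, and the cells were chosen with earlier results of these data known. Their values therefore describe the label and are no independent check of it. Gpnmb, a membrane glycoprotein of phagocytes and lipid-laden macrophages, stood at 141, 97.4 and 279.7 CPM in Spp1-high cells of Gzmb-cko+polyIC, Ncr1-cre+polyIC and Ncr1-cre+Saline, against 1.82, 1.29 and 4.13 CPM in Spp1-zero cells. Its ratio was 77.7 (57.5 to 107), 75.4 (50.4 to 116) and 67.7 (53.7 to 86.2). Igf1, insulin-like growth factor, stood at 513, 379 and 410.3 CPM, against 69.6, 54.1 and 61.9 CPM, with ratios of 7.38, 7 and 6.63. Both were higher in Spp1-high cells of every library, and the counting intervals of both ratios lay above equality.

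Csf1, the microglial growth factor, stood at 451, 337 and 349 CPM in Spp1-high cells, against 77.0, 76.1 and 68.5 CPM in Spp1-zero cells. Lpl, the lipase that frees fatty acids from lipoproteins, stood at 1039.5, 1024 and 879 CPM, against 265, 242 and 231 CPM. Cd9, a tetraspanin of the cell surface, stood at 2977, 2320.2 and 1722 CPM, against 854, 735 and 515 CPM. In ratios these were 4.43 to 5.86 for Csf1, 3.81 to 4.22 for Lpl and 3.16 to 3.48 for Cd9, so all 5 markers were higher in Spp1-high cells in all 3 libraries.

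Because Spp1-high cells were deeper, each cell was also thinned to 3000 UMIs. At that equal depth at least 3 of the 5 markers were detected in 70.0% (65.1 to 74.7%), 67.8% (58.7 to 76.0%) and 68.9% (62.4 to 75%) of Spp1-high cells, against 12.8%, 10.8% and 10.6% of Spp1-zero cells. This left out 3, 3 and 0 Spp1-high and 245, 420 and 0 Spp1-zero cells that were shallower. Thinned detection of Gpnmb was 16.1%, 12.4% and 23.7% in Spp1-high cells against 0.477%, 0.264% and 0.762% in Spp1-zero cells, and detection of Cd9 was 98.4%, 95.9% and 93.6%, against 79.5%, 73.7% and 67.8%. Unthinned, Gpnmb was detected in 27.0%, 17.7% and 32.9% of Spp1-high cells. All 5 markers, which belong to the label, were thus higher in Spp1-high cells of each library, but Gpnmb was detected in a minority of these cells.

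The threshold of 10 Spp1 UMIs cut through a gradient. Cells with 10 or 11 Spp1 UMIs (23, 15 and 29 cells) had 219, 173 and 289 CPM of Igf1, and cells with 8 or 9 (40, 13 and 23 cells) had 313, 139 and 194 CPM. Lpl stood at 799, 652 and 615 CPM just inside and at 443, 306 and 615 CPM just outside. Csf1 stood at 256, 298 and 263 CPM just inside and at 283, 232 and 282 CPM just outside. Lpl was higher just inside than just outside in both poly(I:C) libraries, while Igf1 and Csf1 had no common direction over the 3 libraries.

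**Figure D2:**
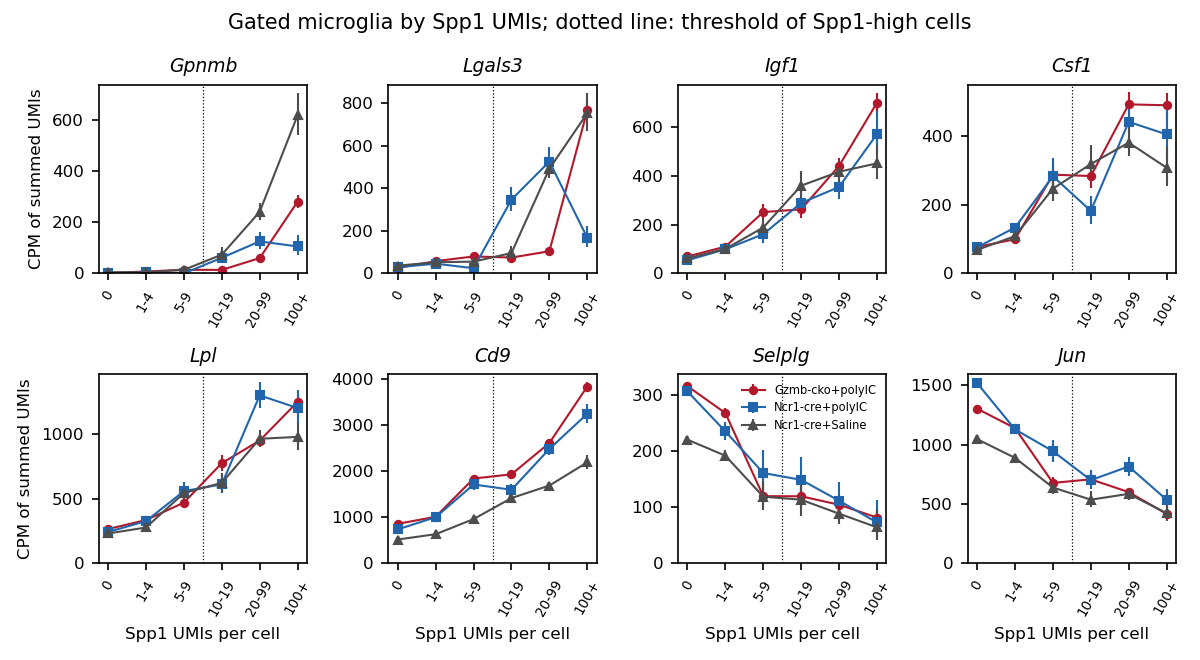
Levels in CPM (linear axes) of 8 genes in gated microglia sorted by their Spp1 UMIs (0, 1 to 4, 5 to 9, 10 to 19, 20 to 99, 100 or more), with 1 line per library, 95% Poisson intervals for counting error as bars and the Spp1-high threshold dotted. Igf1 and Cd9 are higher, and Selplg and Jun lower, at 100 or more Spp1 UMIs than at 0 in all 3 libraries.

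Along the Spp1 count the genes of the profile moved at different points. Igf1 stood at 69.6, 109.8, 252, 263, 441 and 701 CPM in the Gzmb-cko+polyIC library as Spp1 went through 0, 1 to 4, 5 to 9, 10 to 19, 20 to 99 and 100 or more UMIs. In Ncr1-cre+polyIC the same 6 bins gave 54.1, 99, 161, 289, 355 and 572 CPM, and in Ncr1-cre+Saline 61.9, 101, 188, 361, 418 and 452 CPM. Igf1 was thus higher in every bin than in the bin before it, in all 3 libraries.

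Csf1 was already higher below the threshold. It stood at 287, 283 and 246 CPM with 5 to 9 Spp1 UMIs in the 3 libraries, apart from a dip at 10 to 19 UMIs in Ncr1-cre+polyIC (182 CPM), and at 489, 405 and 308 CPM with 100 or more. Gpnmb lay mostly in the upper bins of Gzmb-cko+polyIC and Ncr1-cre+Saline: 14.0 and 14.2 CPM with 5 to 9 Spp1 UMIs, and 281 and 621 CPM with 100 or more. In Ncr1-cre+polyIC it stood at 0 CPM with 5 to 9 and at 106 CPM with 100 or more, where it rested on 24 cells. Selplg, the P-selectin ligand of homeostatic microglia, went the other way, with 81.6, 72.9 and 64.2 CPM in the top bin against 316, 307 and 221 CPM in cells with no Spp1.

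Across all genes, 5505 had at least 20 CPM in the higher class and at least 50 UMIs over both classes in every library. Of these, 146 (2.65%) were at least 1.5 times higher and 193 (3.51%) at least 1.5 times lower in Spp1-high than in Spp1-zero cells in all 3 libraries. These percentages are shares of genes high enough for a call. List counts below are over measured members, those with a mean of at least 10 CPM. Of all 7553 such genes, 146 were called higher and 193 lower, which is the background for the list counts. Members high enough for a call were 15 of 24 matrix, 8 of 16 interferon and 7 of 10 border macrophage genes. They were 4 of 7 osteopontin receptor and 3 of 6 osteoclast genes. With TMM scaling, which moved the median gene by 0.09, 0.12 and 0.03 on the log2 scale in the 3 libraries, 184 genes were higher and 138 lower, a share of 57.1% higher among the calls. In cells of 5000 to 10000 UMIs alone, 110 genes were higher, 95 of them among the 146, and 91 were lower, 70 of them among the 193.

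The 20 named higher genes, those with the greatest smallest ratio of the 3 libraries, held carriers of lipid, galectins, annexins and surface receptors. Fabp5, a fatty acid binding protein, stood at 1928, 1286 and 1672 CPM in Spp1-high cells, against 191, 156 and 207 CPM in Spp1-zero cells, and was 10.1, 8.24 and 8.08 times higher. Fabp3, another such protein, was 7.69, 5.75 and 4.45 times higher. Lgals3, galectin 3, a sugar-binding lectin of phagocytes, stood at 367, 379 and 445 CPM, against 25.3, 29.0 and 36.3 CPM, 14.5, 13.1 and 12.3 times higher. Lgals1, galectin 1, was 6.16, 5.38 and 6.77 times higher. Both galectins and both fatty acid binding proteins were higher in each library.

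In the Ncr1-cre+polyIC library Lgals3 rested on few cells. It was detected in 41 of the 124 Spp1-high cells, and 1 cell held 26.6% of its UMIs there, against 9.18% in Gzmb-cko+polyIC and 7.37% in Ncr1-cre+Saline.

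Fam20c encodes the Golgi kinase that phosphorylates secreted proteins, osteopontin among its known substrates. It stood at 58.6, 28.4 and 22.4 CPM in Spp1-high cells, against 2.69, 2.13 and 2.26 CPM in Spp1-zero cells, 21.8, 13.4 and 9.94 times higher. Itgax, the integrin chain CD11c, stood at 52.2, 54.4 and 51.2 CPM, against 4.75, 5.67 and 7.64 CPM. Lilrb4a, an inhibitory receptor of myeloid cells, was 11.1, 6.49 and 5.33 times higher. Hpse, the enzyme that cuts heparan sulfate in matrix, was 7.12, 10.8 and 4.57 times higher. Cd28, best known as a T cell costimulatory receptor, stood at 26.8, 26.8 and 25.9 CPM, against 3.09, 1.63 and 3.89 CPM, while the T cell gene Cd3e had no UMI in any Spp1-high cell.

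The other named higher genes were Gpnmb, Igf1, Csf1 and Lpl from the markers, the phospholipid-binding annexins Anxa2 and Anxa5, the late endosomal GTPase Rab7b, the transporter Ank, which exports pyrophosphate, the cytoskeletal genes Baiap2l2 and Gas2l3, and the calmodulin regulator Pcp4. Apart from the 4 markers, their smallest ratio over the libraries ran from 3.34 for Anxa2 to 5.84 for Rab7b.

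**Figure D3:**
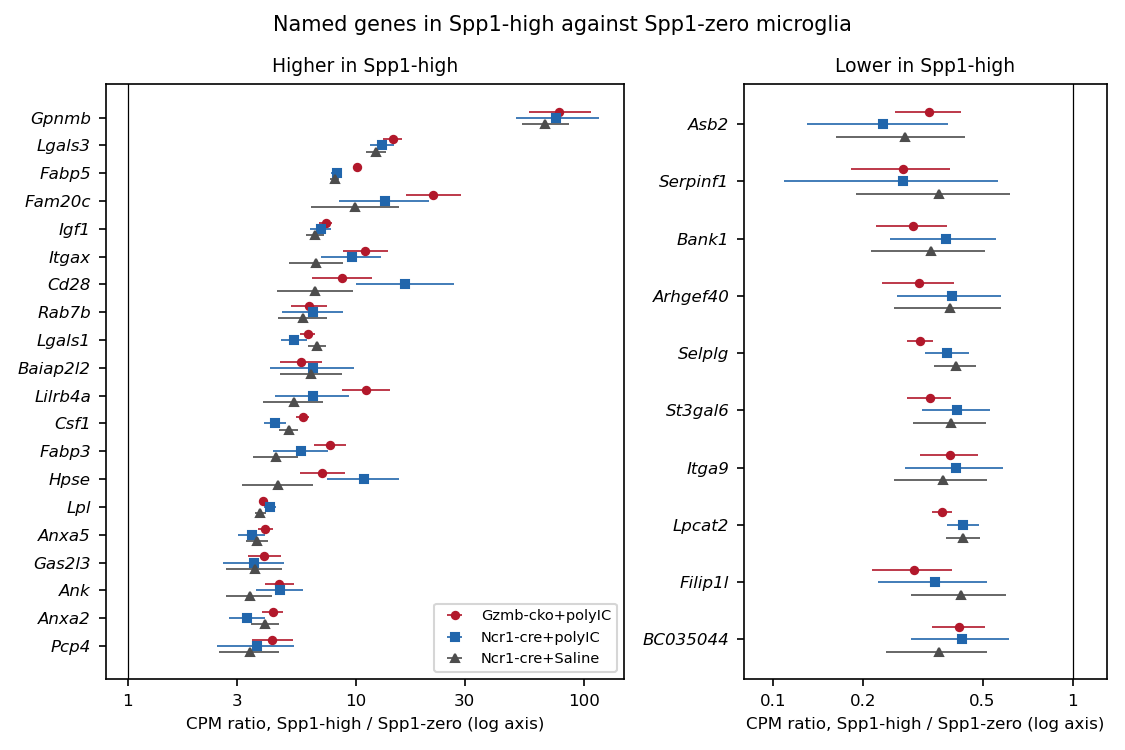
Ratio of CPM in Spp1-high over CPM in Spp1-zero microglia (log axes) for the 20 named higher and 10 named lower genes, 1 point per library with exact 95% intervals for counting error; the line at 1 marks equal levels. The points of the 3 libraries lie close together for most genes, for instance 6.16, 5.38 and 6.77 for Lgals1.

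Ranked by the same rule, the named lower genes were led by Asb2, Serpinf1, Bank1 and Arhgef40, followed by Selplg, a gene of homeostatic microglia. Selplg stood at 98.1, 117 and 89.8 CPM in Spp1-high cells, against 316, 307 and 221 CPM in Spp1-zero cells. Lpcat2, an enzyme of phospholipid remodelling, stood at 157, 222 and 140.4 CPM, against 429, 516 and 326 CPM. St3gal6, a sialyltransferase, stood at 35.4, 48.7 and 30.5 CPM, against 106, 118 and 77.9 CPM. Selplg, Lpcat2 and St3gal6 were each lower in Spp1-high cells in each library.

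Asb2, a subunit of a ubiquitin ligase, was at 0.332, 0.232 and 0.275 of its Spp1-zero level. Bank1, a signalling scaffold, was at 0.292, 0.377 and 0.337 of it. Serpinf1, pigment epithelium-derived factor, was at 0.271, 0.272 and 0.357 of it. Itga9, an integrin chain that can bind osteopontin, was at 0.389, 0.409 and 0.369 of it. The other named lower genes were Arhgef40, Filip1l and BC035044, at 0.295 to 0.428 of the Spp1-zero level.

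The microglia genes used in the gate were lower as well, with the reserve that a cell needed 3 of the 6 to enter. P2ry12, the purinergic receptor of ramified microglia, stood at 451, 543 and 418 CPM in Spp1-high cells, against 1258, 1489 and 1007 CPM in Spp1-zero cells. Tmem119 stood at 80.6, 107 and 88.6 CPM, against 340.2, 376 and 294 CPM, and Slc2a5, the fructose transporter, at 39.7, 52.0 and 42.0 CPM, against 132, 141 and 108 CPM. Sall1, a transcription factor of microglial identity, was at 0.587, 0.651 and 0.681 of its Spp1-zero level, and Gpr34 at 0.789, 0.799 and 0.902. Siglech was at 0.451, 0.518 and 0.499. The 6 genes were not lower by a common factor.

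Of 32 measured homeostatic genes outside the gate, those with a mean of at least 10 CPM, 11 were called lower and 0 higher, and 27 lay below equality in all 3 libraries. Their median log2 ratio was -0.60, -0.55 and -0.48, against -0.10, -0.16 and -0.05 over all 7553 genes of that level. P2ry13, a purinergic receptor, stood at 110.3, 119 and 110.5 CPM in Spp1-high cells, against 214, 239.6 and 171 CPM in Spp1-zero cells. Tgfbr1, the kinase receptor for TGF-beta, stood at 179, 206 and 166 CPM, against 342, 415 and 316 CPM. Cx3cr1, the fractalkine receptor, was lower without passing the 1.5-fold line, at 1558, 1555 and 1923 CPM, against 2278, 2264 and 2650.2 CPM.

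Of the 23 measured genes in the list of axon-tract and phagocytic microglia genes, 18 were called higher and all 23 lay above equality in each library. The list was compiled for this state and holds the markers, so its count restates the label. Its median log2 ratio was 1.80, 1.09 and 1.42. Beside the genes already named, Vat1 was 5.45, 2.82 and 4.31 times higher, the lysosomal phospholipase family member Pld3 2.76, 1.98 and 2.43 times, and the tetraspanin Cd63 1.99, 1.79 and 1.90 times.

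Lipid handling genes had 6 of 19 measured members called higher and 0 lower, with a median log2 ratio of 0.34, 0.35 and 0.49. Plin2, the coat protein of lipid droplets, stood at 478, 417 and 385 CPM in Spp1-high cells, against 203, 187 and 189 CPM in Spp1-zero cells. Soat1, which esterifies cholesterol, stood at 254, 212 and 279 CPM, against 106, 116 and 109.8 CPM. Apoe, the main lipid carrier of the brain, was abundant in both classes, at 19096, 19451 and 19980.3 CPM against 15074, 13345 and 12651 CPM, and passed 1.5-fold in the saline library alone.

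Lysosome genes had 8 of 34 measured members called higher and 0 lower, with a median log2 ratio of 0.49, 0.29 and 0.51. The cathepsins divided. Ctsl stood at 6012, 5099.9 and 4227 CPM in Spp1-high cells, against 2995, 2834 and 2226 CPM in Spp1-zero cells, and Ctsb at 6735, 6286 and 5940.2 CPM, against 3654, 3619 and 3273 CPM. Ctss, by contrast, was at 0.66, 0.75 and 0.77 of its Spp1-zero level. Gla, alpha-galactosidase, was 3.84, 3.33 and 3.99 times higher, and Atp6v1a, a subunit of the proton pump that acidifies lysosomes, 2.41, 1.73 and 2.01 times.

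Spp1 and Gpnmb are also genes of osteoclasts, so a list of that lineage was read. Of its 6 measured members 1 was called higher, the transcription factor Mitf, at 71.8, 71.4 and 61.0 CPM in Spp1-high cells against 32.1, 35.9 and 26.8 CPM in Spp1-zero cells. Atp6v0d2, a proton pump subunit of osteoclasts and macrophages and too low for the count of calls, stood at 32.3, 15.4 and 37.4 CPM in Spp1-high cells, against 0.119, 0.25 and 0.144 CPM in Spp1-zero cells. In Ncr1-cre+polyIC it was detected in 5 Spp1-high cells, of which 1 held 78.9% of its UMIs, so its level there was that of a single cell. Tfeb and Tfe3, relatives of Mitf, ranged from 0.76 to 1.33 of their Spp1-zero level.

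Among secreted growth factors, Igf1 and Csf1 were the 2 of 11 measured members called higher, and 0 were called lower. Of the 11, 8 lay above equality in all 3 libraries, with a median log2 ratio of 0.40, 0.39 and 0.45. Tgfb1 was at 0.91, 0.76 and 0.91 of its Spp1-zero level, and Vegfb at 1.67, 1.32 and 1.59. Receptors of osteopontin had 1 of 7 measured members called, Itga9, which was lower, and a median log2 ratio of 0.16, -0.12 and 0.01. Itgav, the shared chain of several such receptors, was near equal at 55.3, 52.0 and 45.5 CPM in Spp1-high cells and 49.3, 58.1 and 45.1 CPM in Spp1-zero cells. Itga4, below the level needed for a call, was 2.92, 2.73 and 2.93 times higher. Cd44 stood at 8.85, 13 and 14.4 CPM, against 6.06, 8.67 and 10.3 CPM, a low level in both classes.

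Matrix, protease and cytoskeleton genes had 8 of 24 measured members called higher and 0 lower, with a median log2 ratio of 0.63, 0.54 and 0.74. Vim, vimentin, stood at 95.7, 156 and 176 CPM in Spp1-high cells, against 25.1, 37.9 and 40.8 CPM in Spp1-zero cells. S100a1 was 2.55, 2.38 and 3.28 times higher, and Capg, an actin-capping protein, 2.65, 2.09 and 2.79 times. Plaur, the urokinase receptor, stood at 56.9, 25.2 and 19.6 CPM, against 13.4, 13.1 and 9.32 CPM, and was not called because its level in Ncr1-cre+Saline was under the 20 CPM that a call needs in every library.

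Glycolysis and hypoxia genes had 9 of 20 measured members called higher and 0 lower, and 18 of 20 above equality in all 3 libraries, with a median log2 ratio of 0.84, 0.59 and 0.77. Ldha, lactate dehydrogenase, stood at 952, 736 and 763 CPM in Spp1-high cells, against 454, 439 and 409.9 CPM in Spp1-zero cells. Pkm, pyruvate kinase, stood at 1084, 880.0 and 875 CPM, against 547, 531 and 472 CPM. Slc16a3, the lactate exporter, was 2.54, 2.26 and 1.88 times higher, Bnip3 2.19, 1.74 and 2.37 times, while Hk2, hexokinase 2, was at 0.95, 0.94 and 0.94. The respiratory chain list had 0 of 33 members called, with 30 of 33 above equality in all 3 libraries and a median log2 ratio of 0.30, 0.17 and 0.27.

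**Figure D4:**
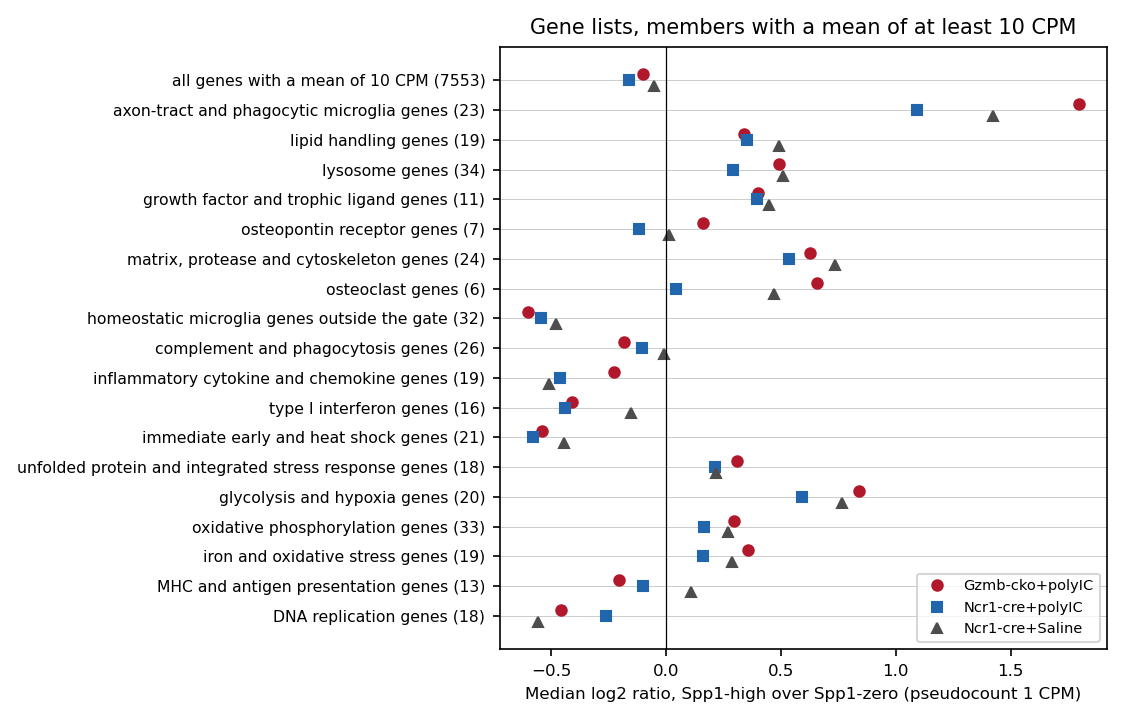
Median log2 ratio of Spp1-high over Spp1-zero microglia for each gene list (members measured in brackets), 1 point per library, with all 7553 genes in the top row and a line at 0. The axon-tract list lies highest (1.80, 1.09 and 1.42), and the homeostatic list lies below the all-gene median in each library (-0.60, -0.55 and -0.48).

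Chemokines split by gene within one list, of whose 19 measured members 4 were called higher and 2 lower. Ccl3, an inflammatory chemokine, stood at 914, 939 and 644 CPM in Spp1-high cells, against 518, 597 and 326 CPM in Spp1-zero cells. Ccl9 stood at 564, 463 and 393 CPM, against 206, 176 and 139 CPM, and Ccl6 was 2.24, 2.40 and 2.11 times higher. Ccl12, a ligand of the monocyte receptor Ccr2, was lower at 83.7, 178 and 67.9 CPM, against 220.2, 273 and 184 CPM. Il1a was lower at 23.0, 17.0 and 17.8 CPM, against 52.8, 70.3 and 38.7 CPM.

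The interferon list had 0 of 16 measured members called in either direction, of which 8 were high enough for a call, and 10 of the 16 lay below equality in all 3 libraries. The median log2 ratio of the interferon list was -0.41, -0.44 and -0.15. Cxcl10, an interferon-induced chemokine of the chemokine list above and not of this one, had 3, 0 and 2 UMIs over all Spp1-high cells. In Spp1-zero cells of the 3 libraries it stood at 19.9, 47.9 and 43.4 CPM. Isg15 stood at 17.7, 24.4 and 17.8 CPM, against 25.1, 33.4 and 31.9 CPM.

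Immediate early genes are transcription factors and regulators that respond within minutes to stimulation and to tissue dissociation. A list of them and of heat shock genes had 9 of 21 measured members called lower and 0 higher. Its median log2 ratio was -0.54, -0.58 and -0.44. Jun stood at 546, 711 and 538 CPM in Spp1-high cells, against 1304, 1519 and 1047 CPM in Spp1-zero cells. Egr1 stood at 301, 278 and 259.5 CPM, against 680.1, 639 and 515 CPM, and Btg2, an antiproliferative regulator, was at 0.35, 0.39 and 0.51. Atf3 was the exception, at 2.09, 1.45 and 2.06 times its Spp1-zero level.

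Of the remaining lists, complement and phagocytosis genes had 2 of 26 measured members higher (Stab1 and C3ar1) and 2 lower (Itgam and Elmo1). DNA replication genes had 3 of 18 lower (Mcm5, Mcm6 and Dut), in cells that the limit on cell cycle genes had already reduced in mitosis. MHC genes had 1 of 13 lower, Cd74, the invariant chain, at 28.0, 30.8 and 22.4 CPM against 59.6, 49.9 and 55.1 CPM. Iron and oxidative stress genes had 2 of 19 higher, Prdx1 and the ferritin chain Ftl1, with Ftl1 at 13081, 11003 and 11284 CPM against 7091, 6333 and 6015 CPM. The stress response list had 1 of 18 lower, Ppp1r15a, and 0 higher, while 12 of the 18 lay above equality in all 3 libraries. Its median log2 ratio was 0.31, 0.21 and 0.22.

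Border macrophage genes outside the gate were in part higher: 4 of 10 measured members were called higher, namely Stab1, Folr2, Dab2 and Ms4a6c. Folr2, a folate receptor, stood at 74.6, 84.4 and 76.5 CPM in Spp1-high cells, against 20.3, 14.6 and 17.4 CPM in Spp1-zero cells. Summed over all 16 genes of that list the level was 2230 CPM in Gzmb-cko+polyIC, 2082 in Ncr1-cre+polyIC and 2446 in Ncr1-cre+Saline in Spp1-high cells, against 2096, 1914 and 2053 CPM in Spp1-zero cells, and Cd209f was at 0 in all Spp1-high cells. The gate allowed 1 border macrophage gene, and 47.8%, 53.2% and 49.8% of Spp1-high cells had one, against 39.99%, 34.6% and 37.1% of Spp1-zero cells.

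Spp1-high cells were then divided by Gpnmb, which was detected in 100 of 370 cells in Gzmb-cko+polyIC (27.0%, 22.6 to 31.9%), 22 of 124 in Ncr1-cre+polyIC (17.7%, 11.5 to 25.6%) and 72 of 219 in Ncr1-cre+Saline (32.9%, 26.7 to 39.5%). In Spp1-zero cells it was detected in 0.899%, 0.476% and 1.28%. Cells with Gpnmb were deeper, with medians of 12792, 10349.5 and 8922.5 UMIs, against 9610, 8660.5 and 6565 UMIs without it, and had median Spp1 counts of 206.5, 126 and 69.5 UMIs, against 36.5, 21.5 and 24. The part of depth in this division was not tested.

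With Gpnmb, Lgals3 stood at 761, 1201 and 817 CPM, against 169.7, 172 and 191 CPM without it, a ratio of 4.49, 6.99 and 4.28. Fabp5 was 2.24, 2.74 and 1.62 times and Igf1 2.01, 2.33 and 1.31 times as high with Gpnmb as without. Not all genes of the profile followed. Lpl was 1.35, 1.4 and 0.725 times and Csf1 1.18, 0.889 and 0.674 times as high with Gpnmb as without, so neither had 1 direction in all 3 libraries. Ccl3 was lower with Gpnmb, at 736, 588 and 445 CPM, against 1003, 1028 and 779.5 CPM.

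Some homeostatic and early-response genes were lower in the Gpnmb cells, others not beyond counting error in every library. P2ry12 stood at 313, 294 and 292 CPM with Gpnmb, against 520.2, 606 and 505 CPM without. Jun stood at 399.8, 435 and 459.6 CPM with Gpnmb, against 619, 781 and 591 CPM without. Cx3cr1 was at 0.782, 0.822 and 0.777 of its level without Gpnmb. Tmem119 was at 0.570, 0.470 and 0.769 and Selplg at 0.739, 0.427 and 0.916 of it, and in Ncr1-cre+Saline their intervals (0.541 to 1.08 for Tmem119 and 0.652 to 1.28 for Selplg) included equality.

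**Figure D5:**
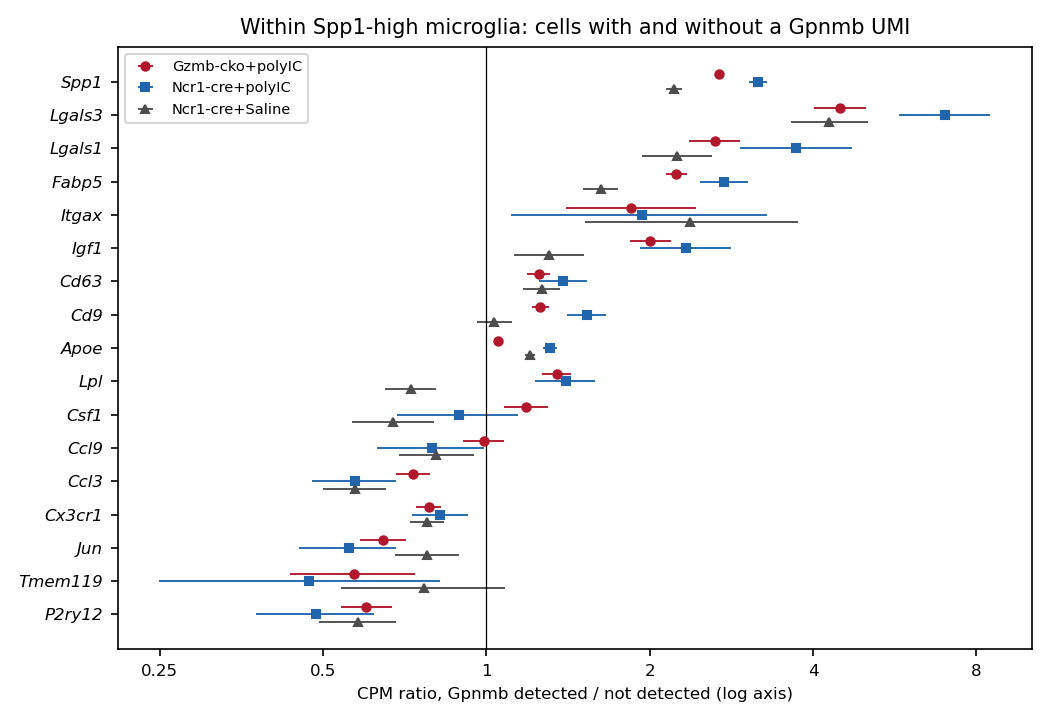
Ratio of CPM in Spp1-high cells with a Gpnmb UMI over those without (log axis), 1 point per library, bars are exact 95% intervals for counting error. Lgals3 (4.49, 6.99 and 4.28) lies to the high side, P2ry12 (0.601, 0.486 and 0.579) to the low side, and Csf1 on both.

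The border macrophage gene Ms4a7 moved with Gpnmb. It stood at 8.58, 28.2 and 72.3 CPM in Spp1-high cells with Gpnmb, against 2.88, 4.07 and 4.84 CPM in those without. Over all Spp1-high cells Ms4a7 stood at 4.79, 8.93 and 32.2 CPM, against 2.97, 1.79 and 2.83 CPM in Spp1-zero cells. The ratio was 1.61 (0.932 to 2.67), 4.98 (2.32 to 9.83) and 11.4 (7.74 to 16.7). In Spp1-zero cells, which were shallower, it was detected in 1.25%, 0.643% and 1.03%. Ms4a7 was detected in 12 (3.24%), 7 (5.65%) and 18 (8.22%) Spp1-high cells of Gzmb-cko+polyIC, Ncr1-cre+polyIC and Ncr1-cre+Saline. In these few cells Gpnmb stood at 213, 598 and 748 CPM, against 139, 56.2 and 220.4 CPM in the Spp1-high cells without Ms4a7. In Ncr1-cre+polyIC the 7 cells with Ms4a7 held 56 of the 120 Gpnmb UMIs and 213 of the 467 Lgals3 UMIs of all Spp1-high cells. Without the Ms4a7 cells, Gpnmb stood above its Spp1-zero level of 1.82, 1.29 and 4.13 CPM in each library. Csf1 went against Gpnmb here, at 0.483, 0.616 and 0.340 of its level in cells without Ms4a7.

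Spp1-high microglia were set beside Spp1-rich macrophages, which were 123, 56 and 156 cells with at least 10 Spp1 UMIs, Ms4a7 and at least 2 border macrophage genes detected and Lyve1 and Cd163 not. Csf1 was higher in Spp1-high microglia, at 451, 337 and 349 CPM, against 89.5, 84.6 and 59.8 CPM in the macrophages. Ccl3 was 3.79, 4.77 and 4.88 times and Lpl 2.00, 3.04 and 2.53 times as high in the microglia. Gpnmb was lower in the microglia, at 141, 97.4 and 279.7 CPM, against 662, 488 and 782 CPM, as were Apoe (0.397, 0.429 and 0.464 times) and Lgals3 (0.493, 0.539 and 0.540 times). The markers Igf1 (0.662, 0.608 and 0.661 times) and Spp1 itself (0.820, 0.585 and 0.659 times) were lower in the microglia too. Igf1 was thus also high in these macrophages, whose high Spp1 was set by the cut of 10 UMIs that chose them. The macrophage chemokine Pf4 was at 0.131, 0.0549 and 0.160 times and Ms4a6c at 0.178, 0.152 and 0.268 times. Fabp5, at 1.01, 1.03 and 1.03 times, and Ctsb, at 1.02, 1.08 and 1.02 times, were at like levels in both. These values describe classes cut partly on the same cells' genes and carry no test.

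Gated cells were a minority of all kept cells with at least 10 Spp1 UMIs, 370 of 990 (37.4%) in Gzmb-cko+polyIC, 124 of 307 (40.4%) in Ncr1-cre+polyIC and 219 of 759 (28.9%) in Ncr1-cre+Saline. Cycling microglia, which the limit on cell cycle genes set aside, held 164, 27 and 94 more, which were 8.23%, 2.46% and 4.47% of the cycling microglia of their library. The order of the libraries among cycling microglia was that among gated microglia. The limit on border macrophage genes set aside 237, 56 and 148 cells that had at least 3 microglia genes, and 85, 40 and 128 that had fewer. In the former P2ry12 stood at 324, 263 and 295 CPM, against 451, 543 and 418 CPM in the gated cells. Ccr2 was detected in 31, 13 and 67 of the cells with at least 10 Spp1 UMIs. A further 103, 47 and 103 cells had fewer than 3 microglia genes and at most 1 border macrophage gene. Spp1 in them stood at 22833, 25803 and 18882 CPM, so the gate left out cells of higher Spp1 than its own members.

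Between libraries, within Spp1-high cells, 5570 genes had at least 20 CPM in the higher library and at least 100 UMIs over both in Gzmb-cko+polyIC and Ncr1-cre+polyIC. Of these, 229 (4.11%) were at least 1.5 times higher and 175 (3.14%) at least 1.5 times lower in Gzmb-cko+polyIC. In Spp1-zero cells, summed over many more cells, 10 of 5916 (0.169%) were higher and 91 (1.54%) lower. With TMM scaling the Spp1-high counts were 290 higher and 141 lower. For Ncr1-cre+polyIC over Ncr1-cre+Saline, 173 of 3696 genes (4.68%) were higher and 185 (5.01%) lower in Spp1-high cells, against 242 (4.09%) and 94 (1.59%) of 5917 in Spp1-zero cells. These 2 comparisons share the Ncr1-cre+polyIC library, which had the fewest Spp1-high cells, and the counts are of genes past a fold and not of tested differences.

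Red cell RNA differed between the libraries as well. The 10 erythroid markers, globins included, summed to 24415 CPM in Spp1-high cells of Gzmb-cko+polyIC, 94277 CPM in Ncr1-cre+polyIC and 43553 CPM in Ncr1-cre+Saline, against 17962, 44262 and 83532 CPM in Spp1-zero cells. Cells with over 5% of UMIs from hemoglobin genes were 3.24%, 12.9% and 7.31% of Spp1-high cells. Without them, 136 genes were higher and 308 lower in Gzmb-cko+polyIC than in Ncr1-cre+polyIC. Without cells that had a border macrophage gene, 356 were higher and 57 lower, so the balance of directions depended on which cells were summed.

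Of the marker genes, Igf1 in Spp1-high cells was 1.35 times (1.22 to 1.5) as high in Gzmb-cko+polyIC as in Ncr1-cre+polyIC, and Spp1-zero cells gave 1.29 times. Csf1 was 1.34 times (1.20 to 1.49) and Cd9 1.28 times (1.23 to 1.34) as high, while Lpl was 1.02 times (0.954 to 1.08). Gpnmb was 1.45 times (1.19 to 1.78) and Fabp5 1.5 times (1.42 to 1.58) as high. In Ncr1-cre+polyIC over Ncr1-cre+Saline, Igf1 was 0.924 times (0.820 to 1.04), Csf1 0.966 times (0.851 to 1.10) and Gpnmb 0.348 times (0.283 to 0.426) as high. Among the 6 markers Gpnmb differed most between those libraries, where it was detected in 22 of 124 and 72 of 219 Spp1-high cells. Spp1-zero cells gave a like ratio for Gpnmb, 0.313 times.

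Among the genes named as higher in Gzmb-cko+polyIC than in Ncr1-cre+polyIC, Plaur stood at 56.9 CPM in Gzmb-cko+polyIC against 25.2 CPM in Ncr1-cre+polyIC, 2.26 times (1.55 to 3.4) as high. In Spp1-zero cells Plaur was at 1.02 times. Rgs1, a regulator of G protein signalling, stood at 64.8 CPM against 28.4 CPM, 2.28 times (1.60 to 3.34) as high, and at 1.11 times in Spp1-zero cells. Calml4 stood at 24.2 CPM against 2.44 CPM, 9.92 times (3.30 to 48.9), but it rested on 3 UMIs in Ncr1-cre+polyIC. The others were Cdkn1c, Arap2, Gtf3c2, Gadd45g and Chchd10, at 2.25 to 3.14 times.

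Most of the genes named as lower are known from other cell types. Stfa3, BC100530, Stfa2l1 and Stfa2, stefin genes of neutrophils, were at 0.0960 to 0.256 times, and 66.2% to 86.1% of their UMIs in the Ncr1-cre+polyIC Spp1-high cells lay in a single cell each. Neutrophil markers summed to 483 CPM in Gzmb-cko+polyIC, 1994 CPM in Ncr1-cre+polyIC and 3552 CPM in Ncr1-cre+Saline in Spp1-high cells, against 664, 1858 and 2720 CPM in Spp1-zero cells, with Mpo and Elane at 0 in all Spp1-high cells. Slc25a37 and Epb41, genes of red cell iron import and membrane skeleton, were at 0.275 and 0.316 times. Sox11, a gene of immature neurons, was at 0.332 times with 47.9% of its Ncr1-cre+polyIC UMIs in 1 cell, and the linker histone gene Hist1h1e was at 0.338 times, against 0.319 times in Spp1-zero cells.

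In Ncr1-cre+polyIC over Ncr1-cre+Saline, Ccl12 stood at 178 CPM against 67.9 CPM, 2.62 times (2.08 to 3.30) as high in Spp1-high cells and 1.48 times in Spp1-zero cells. Fos stood at 740.4 CPM against 337 CPM, 2.20 times (1.98 to 2.44), and Zfp36, which destabilises cytokine transcripts, at 364 CPM against 174 CPM, 2.09 times (1.80 to 2.43). In Spp1-zero cells Fos was at 2.13 and Zfp36 at 2.10 times, so the 2 classes gave like ratios. H2-T23, Minpp1, Cep170, Rnaset2a and Zfp90 were the others, at 2.06 to 2.38 times. The named lower genes beside Gpnmb were Crip1 (0.260 times), Ifi27l2a (0.333), Cybb (0.347), Sod1 (0.373), Stfa2l1 (0.397), S100a11 (0.400) and Pet100 (0.426).

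Ccl2, the chemokine that draws monocytes through Ccr2, stood at 60.8 CPM in Gzmb-cko+polyIC and 68.2 CPM in Ncr1-cre+polyIC in Spp1-high cells, 0.891 times (0.694 to 1.15). In Spp1-zero cells it stood at 71.2 and 151 CPM, 0.471 times. Over the immediate early and heat shock list the median log2 ratio in Spp1-high cells was -0.33 for Gzmb-cko+polyIC over Ncr1-cre+polyIC. It was 0.47 for Ncr1-cre+polyIC over Ncr1-cre+Saline, and in Spp1-zero cells the values were -0.23 and 0.54. The respiratory chain list had 33 of 33 members above equality in the first of these comparisons (median 0.36) and 0 of 33 in the second (median -0.50), and in Spp1-zero cells the medians were 0.26 and -0.39. Both lists thus moved in Spp1-high cells as in Spp1-zero cells of the same libraries.

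The targeted gene gave no check of the labels here, since Gzmb had no UMI in any Spp1-high cell, nor had Ncr1, Nkg7, Klrd1 or Cd3e. A count of 0 over the Spp1-high cells allows up to 0.718, 2.44 and 1.73 CPM in Gzmb-cko+polyIC, Ncr1-cre+polyIC and Ncr1-cre+Saline. The choroid plexus transcript Ttr, as a measure of free RNA, stood at 2400 CPM in Gzmb-cko+polyIC, 835 CPM in Ncr1-cre+polyIC and 5243 CPM in Ncr1-cre+Saline in Spp1-high cells, against 2354, 4385 and 5646 CPM in Spp1-zero cells. Its part in the differences between libraries was not tested.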

How the data were processed

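The authors deposited UMI counts per gene and barcode (27998 genes) as 10x matrices, read without change. Per the file headers the matrices come from Cell Ranger 5.0.0. The submitters' processing notes list mm10, STAR and another version, Cell Ranger 3.0.1, with no role for either. The lower limit of UMIs per barcode differs between libraries and is not explained there. Depth is given with the results.

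For each library the counts of all cells in a class were added and divided by the class total (CPM). Log2 ratios use a pseudocount of 1 CPM. A gene was called between classes at 20 CPM in the higher class, 50 UMIs over both and a ratio of 1.5 in the same direction in all 3 libraries, and between libraries at 20 CPM, 100 UMIs and a ratio of 1.5. The 20 higher and 10 lower genes with the greatest smallest ratio were named, and 8 per direction between libraries; left out were genes of the gate (from the contrast of classes), mitochondrial, ribosomal, hemoglobin, predicted and sex-linked genes, symbols listed more than once and markers of other cells. Of each list up to 4 members with the greatest differences were named by rule, and other list members were chosen after their values were seen. Intervals are exact (Clopper-Pearson for shares, conditional binomial for ratios). There is no test, since each group has 1 library.

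Of 546 list genes 542 matched the files; Clec7a, Mx2, Ighm and Trbc1 were not analysed here. Cell members and gene lists were chosen with earlier results of these data known. Doublets were marked with Scrublet in scanpy 1.11.5 (0.8% per 1000 barcodes) and kept. TMM came from edgeR 4.0.16; other steps used python 3.11.15, numpy 2.4.6, scipy 1.17.1 and pandas 2.3.3. The ratio step was tested on simulated data. Promoter sequences are from RefSeq for GRCm38.p6.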

Additional observations from a re-analysis of the deposited data

Results flagged for a closer look

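Genes are given here because their difference had opposite directions in 2 libraries or 2 classes; none of these differences was tested. Fam220a had a log2 ratio of Spp1-high over Spp1-zero cells of 0.64 in Ncr1-cre+polyIC and -0.62 in Ncr1-cre+Saline. Bpgm, a glycolytic enzyme best known from red cells, had 0.69 in Ncr1-cre+polyIC and -0.59 in Ncr1-cre+Saline. Sox11 had 1.34 in Ncr1-cre+polyIC and -2.42 in Ncr1-cre+Saline, with 47.9% of its Spp1-high UMIs in Ncr1-cre+polyIC in 1 cell. Cd24a, between Ncr1-cre+polyIC and Ncr1-cre+Saline, had a log2 ratio of 0.82 in Spp1-high cells and -0.73 in Spp1-zero cells. The erythroid marker sum moved the same way, at 94277 CPM in Ncr1-cre+polyIC and 43553 CPM in Ncr1-cre+Saline in Spp1-high cells, and at 44262 and 83532 CPM in Spp1-zero cells, and its part was not tested.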

How the results depend on the processing

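No paired analysis was possible because each group has 1 library. The share in Gzmb-cko+polyIC stayed above that in Ncr1-cre+polyIC, and that in Ncr1-cre+polyIC below that in Ncr1-cre+Saline, in every alternative run, with ratios of 2.11 to 2.96 and 0.533 to 0.725. Of the values of classes, lists and counts under the alternatives, 146 stayed within a set limit, 65 moved further and 7 changed sign. For single genes the numbers were 737, 189 and 4. The limit was the counting interval for shares, for Spp1 held and for ratios between libraries, and 1.5 times for counts of genes. For list medians and ratios of single genes between classes it was the standard deviation over the 3 libraries, which are not replicates. Depth limits the Ncr1-cre+polyIC values most, with 124 Spp1-high cells and 1231777 UMIs.

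Shares in Gzmb-cko+polyIC, Ncr1-cre+polyIC and Ncr1-cre+Saline were 4.50%, 1.52% and 2.71% with at least 20 Spp1 UMIs (ratio 2.96 between the poly(I:C) libraries; 92.5%, 84.7% and 81.6% of Spp1 held) and 7.90%, 3.73% and 5.68% with at least 5 (96.2%, 93.9% and 90.6% held). With no macrophage gene they were 5.17%, 1.84% and 3.15%. Gzmb-cko+polyIC and Ncr1-cre+polyIC gave 4.55% and 1.91% with 1000 genes and 5% mitochondrial UMIs, and 4.8% and 1.97% with 20 Spp1 UMIs per 10000. Gzmb-cko+polyIC and Ncr1-cre+Saline gave 4.98% and 3.14% with 4 of 6 microglia genes. Ncr1-cre+Saline gave 4.55% with 1 of 6, a setting added after the data were seen, as were both that set hemoglobin aside.

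Counts of higher and lower genes were 59 and 27 with a ratio of 2, and 257 and 613 with 20 UMIs and no CPM minimum. With 50 CPM 110 were lower, and in cells of 5000 to 10000 UMIs 91. With 20 UMIs and no CPM minimum, Gzmb-cko+polyIC over Ncr1-cre+polyIC gave 866 higher and 741 lower, and Ncr1-cre+polyIC over Ncr1-cre+Saline 882 and 725. Gzmb-cko+polyIC over Ncr1-cre+polyIC gave 356 higher and 57 lower with no macrophage gene, 136 and 308 without hemoglobin-rich cells, and 140 higher with hemoglobin, mitochondrial and ribosomal genes out of the total. With no macrophage gene, Ncr1-cre+polyIC over Ncr1-cre+Saline gave 33 higher, and Stfa3 (1.12), BC100530 (1.86), Stfa2l1 (1.55) and Stfa2 (1.35) turned to a positive log2 ratio of Gzmb-cko+polyIC over Ncr1-cre+polyIC.

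List values are the middle of the 3 library medians, and the immediate early list includes heat shock genes. In cells of 5000 to 10000 UMIs they were 0.12 for complement and -0.23 for osteopontin receptors (both changed sign), 0.16 for oxidative phosphorylation, 0.29 for the stress response, 0.48 for lipid handling, 0.48 for growth factors, -0.38 for immediate early, -0.24 for interferon, 0.37 for matrix, -0.31 for homeostatic and 0.16 for iron genes. With TMM they were 0.017 for MHC and 0.012 for complement (both changed sign), 0.48 for lipid handling, 0.33 for the stress response, 0.49 for growth factors, -0.45 for homeostatic and -0.45 for immediate early genes. With no macrophage gene they were 0.42 for the stress response, -0.28 for inflammatory, 0.46 for growth factors, 0.96 for glycolysis and -0.65 for immediate early genes. Without hemoglobin-rich cells they were -0.30 for inflammatory, 0.29 for the stress response, -0.45 for immediate early and -0.038 for osteopontin receptor genes (changed sign). With members of at least 50 CPM they were 0.15 for osteoclast, 0.92 for matrix, -0.62 for immediate early, 0.48 for lipid handling, -0.16 for osteopontin receptor and 0.46 for inflammatory genes, of which the last pair changed sign. The cause of each move was not tested.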
